A study of Homo sapiens with 15 samples.

Results

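Interferon-stimulated genes are the genes that cells switch on when they sense interferon, and 39 of them, chosen by symbol as well-known members of that response, were followed here in A549 cells exposed to interleukin 13 (IL-13). Of the 39 symbols, 38 had at least 1 probe set on the Affymetrix HG-U133A array (61 probe sets in all), and 19 of these 38 were bright enough to test, among 6884 genes tested and 11963 genes with a probe set. The member without a probe set under its own symbol, STAT2, was not analysed here. A549 is an established human epithelial line from a lung tumour, which the labels call a bronchial line, and IL-13 is a cytokine of allergic airway disease. The 15 arrays fall into 5 groups of 3: untreated cells at 0 h, untreated cells at 24 h, and cells harvested 4, 12 or 24 h after IL-13. The labels name no dose of IL-13, all groups are the same unmodified line, and no untreated arrays at 4 or 12 h were analysed here.

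In the canonical response, interferon binds its receptor, Janus kinases phosphorylate STAT proteins, and the STATs together with IRF9 move to the nucleus and bind a short element, the interferon-stimulated response element (ISRE), in the promoters of the induced genes. The induced proteins block viruses at many steps: the OAS enzymes and the kinase EIF2AK2 respond to double-stranded RNA, the IFIT proteins bind viral RNA, the MX proteins and GBPs are large GTPases, ISG15 is a ubiquitin-like protein that is attached to other proteins, and the IFITM proteins act at membranes. IL-13 signals through a different receptor and chiefly through STAT6, whose usual site joins the same TTC and GAA ends as other STAT sites at a wider spacing. Airway epithelium is a main site of both responses.

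The values are signals per probe set, and as deposited every array has nearly the same trimmed mean, 150.04 to 150.06. The difference of a gene is taken between arrays for 1 probe set, not between probe sets. Sums over markers and means over members combine several probe sets and are descriptions. Differences below are of log2(signal + 20) after quantile normalisation, so that 1 unit is a 2-fold change; the added 20 understates the change of dim genes. P-values are from limma's moderated test with Benjamini-Hochberg adjustment over the 6884 genes, and a gene was called when its adjusted p was under 0.05. The labels letter the 3 arrays of a group a, b and c and do not tie them to separate cultures. The p-values therefore reflect array-to-array spread within these groups, possibly technical in origin, and nothing wider. Array medians ran from 56.7 to 72.5, the correlation of arrays within a group was 0.972 to 0.979, and the number of arrays limits the precision.

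The epithelial identity of the cells showed in the markers: KRT7, KRT8, KRT18, KRT19 and CDH1 passed the brightness threshold, 5 of 6 epithelial markers, and the summed signal of the 6 lay between 17587 and 21975 on every array. Most of that sum is KRT18, and single markers changed: KRT8 rose by 0.40 on the log2 scale between the 24 h groups (adjusted p = 0.0038), and between 0 h and 24 h of IL-13 KRT8 rose by 0.53 (adjusted p = 0.000281), CDH1 rose by 1.12 (adjusted p = 0.00258) and KRT7 fell by 0.40 (adjusted p = 0.00526). KRT7 also fell in untreated cells between 0 and 24 h, by 0.43 (adjusted p = 0.00819), and by 12 h of IL-13, by 0.42 (adjusted p = 0.00508). CDH1 differed by 0.53 (adjusted p = 0.151) between untreated cells at 24 and 0 h. Between the 24 h groups it differed by 0.59 (adjusted p = 0.0853), and neither was called. Of 8 leukocyte markers, cells whose presence would add interferon-induced transcripts, 6 had a probe set and 2 were bright, CD3E and ITGAM; the summed signal of the 6 was 227 to 315 in the untreated 24 h arrays and 176 to 245 in the IL-13 24 h arrays. The plasmacytoid dendritic marker with a probe set stayed between 4.65 and 15.2 on all 15 arrays, 1 of 3 endothelial markers (PECAM1) was bright, and the summed signal of the 4 fibroblast markers, of which COL1A1 was bright, was 116 to 169 after 24 h of IL-13 against 225 to 277 in untreated cells at 24 h, where COL1A1 fell by 0.78 (adjusted p = 0.00495). The ratio of the actin 3′ to 5′ control signals, a sign of RNA quality, was 1.001 ± 0.065 (SD, n = 3) at 0 h, 1.03 ± 0.078 and 1.08 ± 0.049 at 4 and 12 h of IL-13, 1.17 ± 0.066 in untreated cells at 24 h and 1.18 ± 0.081 after 24 h of IL-13. It stood higher at 24 h than at 0 h with and without IL-13 and nearly equal in the 24 h groups. The part of this ratio and of the markers in the results below was not tested. In bulk RNA, a change in the number of cells that express a gene and a change in RNA per cell cannot be told apart.

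Many members carry in their promoters the sequence by which the family is known. RefSeq promoters (GRCh38.p14, 250 bases before to 50 after the start) were found for 30 of the 39 members, in 39 windows because some genes have more than 1 start. The ISRE core, searched as GAAANNGAA on both strands, was in 24 of the 39 windows (61.5%), against 8.11% of 35116 windows of all genes. A STAT site with its TTC and GAA ends 3 bases apart, TTCNNNGAA, was in 9 of 39 windows (23.1%, against 7.66%), and the same ends 4 bases apart, the spacing STAT6 favours, were in 5 (12.8%, against 6.44%). A match describes the letters in the window and nothing more. Among the members bright enough to test, 14 genes with 18 windows, the ISRE core was in the windows of 8 genes (EIF2AK2, IFIT5, ISG15, ISG20, LGALS3BP, OAS3, TRIM14 and TRIM21), the spacing of 3 in those of IRF9, IRF1 and IFI35, and the spacing of 4 in 0.

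The 150 bases before the start are shown for 5 genes, 5′ to 3′ on the gene's strand, with each match in capitals. IRF9 and IRF1 are shown because they were called higher with IL-13, OAS3 because it was called lower, and IFI35 and ISG15 as members with the one or the other motif that were not called:
IRF9 (chr14:24161115-24161264, plus strand): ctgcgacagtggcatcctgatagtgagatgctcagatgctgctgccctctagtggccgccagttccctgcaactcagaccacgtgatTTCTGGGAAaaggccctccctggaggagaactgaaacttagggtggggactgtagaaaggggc
IRF1 (chr5:132490774-132490923, minus strand): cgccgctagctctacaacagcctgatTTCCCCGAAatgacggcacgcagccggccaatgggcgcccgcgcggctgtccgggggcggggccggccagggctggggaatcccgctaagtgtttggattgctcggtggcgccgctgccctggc
IFI35 (chr17:43006634-43006783, plus strand): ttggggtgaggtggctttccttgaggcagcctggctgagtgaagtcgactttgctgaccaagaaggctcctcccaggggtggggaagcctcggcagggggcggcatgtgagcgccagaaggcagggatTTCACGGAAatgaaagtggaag
OAS3 (chr12:112938324-112938473, plus strand): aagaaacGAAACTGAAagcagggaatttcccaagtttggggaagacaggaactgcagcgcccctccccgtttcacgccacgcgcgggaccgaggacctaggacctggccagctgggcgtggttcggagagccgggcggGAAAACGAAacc
ISG15 (chr1:1013347-1013496, plus strand): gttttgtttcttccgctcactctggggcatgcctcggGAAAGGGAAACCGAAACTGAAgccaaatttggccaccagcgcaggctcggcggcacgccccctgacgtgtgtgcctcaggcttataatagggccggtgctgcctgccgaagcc

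The first 3 hold a STAT site with a spacing of 3: in IRF9 it spans bases -63 to -55 from the start, in IRF1 -124 to -116 and in IFI35 -22 to -14. OAS3 holds 2 ISRE cores, at -143 to -135 and -12 to -4, and ISG15 holds 3 overlapping ones between -113 and -93. ADAR, the fourth gene called, had none of these motifs in its 3 windows, which says only that the letters are not there. IRF1, OAS3 and ADAR were called only against 0 h, which mixes IL-13 with time in culture. Of the called genes, IRF9 alone was also called against untreated cells at 24 h.

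The comparison that holds time in culture equal is IL-13 at 24 h against untreated cells at 24 h, and in it 1 of the 19 tested members changed: IRF9 rose 1.46-fold. That is 5.26% of the members, against 7.00% of all 6884 genes called (3.94% of all genes called higher). With each array scaled to a common median instead, 6 members were called, all higher, but so were 1182 genes against 56 called lower (271 and 211 as reported). The count was 0 when the model held only the 2 groups. No member reached a 2-fold difference in any of the 5 comparisons; the furthest was 1.62-fold. For 18 of the 19 members the 95% confidence interval of this difference lay within 2-fold in either direction, the exception being SP100, whose interval ran from 0.20 to 1.19. With more members than not slightly above 0, 14 of 19 differences were positive (73.7%, against 50.3% of all genes); their median was 0.05, against 0.0016 for all genes, and their mean 0.14. At an unadjusted p under 0.05 there were 8 of 19 members and 1635 of 6884 genes.

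**Figure D1:**
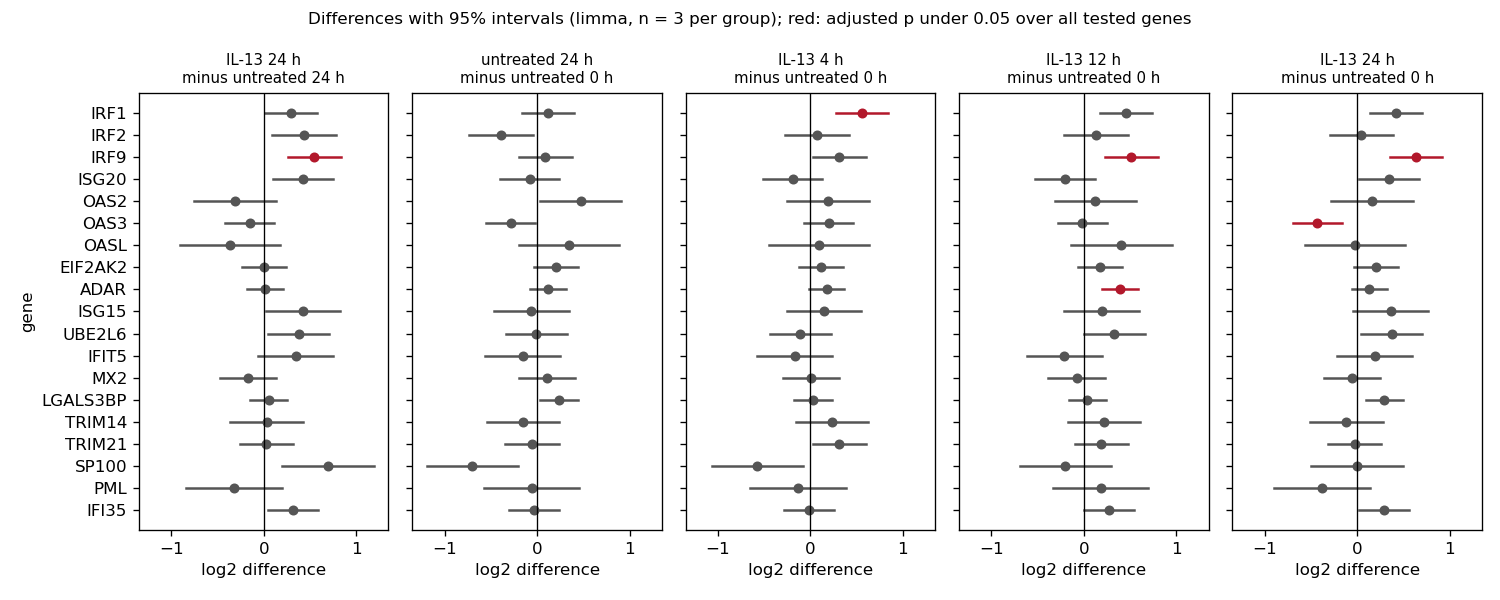
Log2 difference of each of the 19 tested members in the 5 comparisons, with 95% confidence intervals from the limma fit (n = 3 arrays per group). Red marks an adjusted p under 0.05 and grey the rest. IRF9 is red in 3 of the comparisons, IRF1, ADAR and OAS3 in 1 each, and most intervals include 0.

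IRF9, the DNA-binding subunit of the complex that carries the type I interferon signal to the ISRE, gave signals of 110.2, 92.9 and 104 in the untreated arrays at 0 h and 110.1, 118 and 132.5 in those at 24 h. With IL-13 the signals were 122, 141 and 137 after 4 h, 135, 169 and 165 after 12 h and 200.2, 187 and 136 after 24 h. All 9 IL-13 arrays were thus above the highest 0 h array, and all 3 arrays at 24 h were above the highest untreated 24 h array, although array c at 24 h cleared it by little. The difference at 24 h was 0.55 ± 0.14 (SE, n = 3 per group, adjusted p = 0.0223) against untreated 24 h cells, and 0.64 ± 0.14 (SE, n = 3 per group, adjusted p = 0.00803) against 0 h. It was 0.51 ± 0.14 (SE, n = 3 per group, adjusted p = 0.0392) at 12 h, and 0.31 ± 0.14 (SE, n = 3 per group, adjusted p = 0.398) at 4 h; time alone gave 0.09 ± 0.14 (SE, n = 3 per group, adjusted p = 0.772). The rise over 0 h at 24 h was called under all 15 alternative settings. The rise over untreated 24 h cells was not called when array a of the untreated 24 h group (0.48) or array a (0.46) or b (0.50) of the IL-13 24 h group was left out, or when the model held only those 2 groups; its adjusted p ran from 0.0049 to 0.0928 over 15 settings. The rise at 12 h was lost in 9 of 15 settings, with values from 0.40 to 0.60. A second probe set carries the symbols RNF31 and IRF9 together and was left out of the set; it was dim (mean signal 47.8) and differed by -0.07 between the 24 h groups. Against 0 h it differed by -0.12 at 12 h and -0.29 ± 0.18 (SE) at 24 h of IL-13, opposite in sign to the IRF9 probe set.

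IRF1, a transcription factor that interferon gamma induces within hours and that binds much the same element, gave 115, 135 and 151 in the untreated arrays at 0 h and 139, 145 and 179 in those at 24 h. With IL-13 its signals were 224, 196 and 194 after 4 h, 199.7, 204 and 165 after 12 h and 216, 181 and 162 after 24 h. The 3 arrays at 4 h were all above the highest 0 h array, and the 24 h arrays overlapped the untreated 24 h arrays. At 4 h IRF1 rose 1.47-fold over 0 h, by 0.56 ± 0.13 (SE, n = 3 per group, adjusted p = 0.0488). It then stood 0.45 (adjusted p = 0.0662) above 0 h at 12 h and 0.42 (adjusted p = 0.0681) at 24 h, neither called, and 0.30 (adjusted p = 0.184) above untreated cells at 24 h. The 4 h call was lost when any 1 of the 6 arrays compared was left out, and in 11 of 16 settings in all, with values from 0.45 to 0.63. IRF2, which competes with IRF1 for the same element, gave 69.3, 96.7 and 93.1 in the untreated arrays at 0 h and 77.0, 81.7 and 53.5 in those at 24 h. With IL-13 it gave 99.1, 95.1 and 84.4 after 4 h, 89.1, 101 and 107 after 12 h and 79.5, 86.4 and 101 after 24 h. Its difference between the 24 h groups was 0.44 ± 0.16 (SE, n = 3 per group, adjusted p = 0.111); untreated array c was the lowest, and the groups overlap in the deposited signals but not after normalisation.

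**Figure D2:**
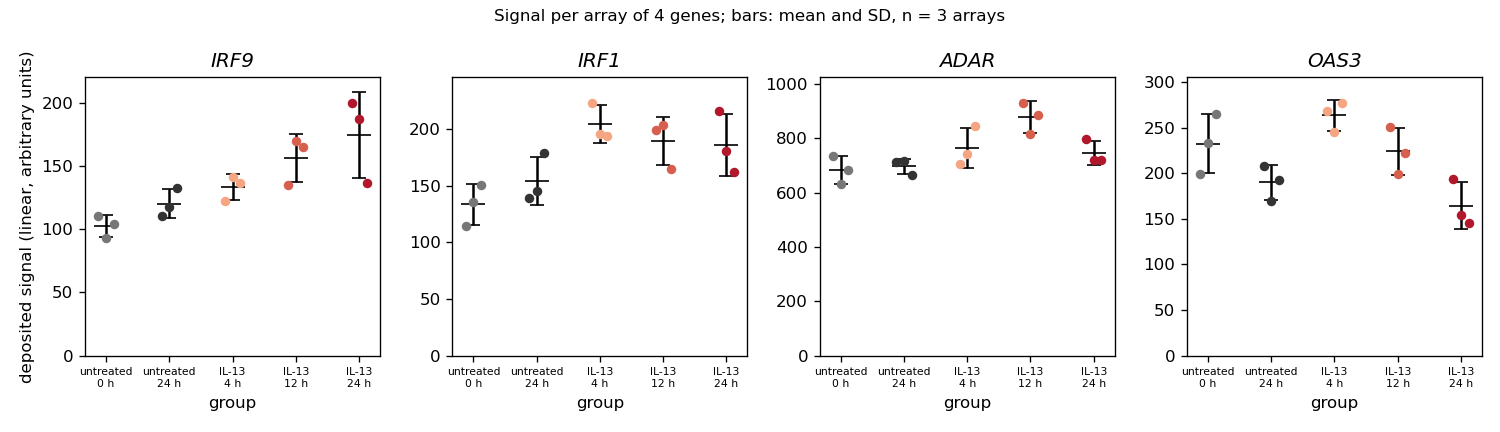
Deposited signal (linear scale) of the 4 members called in any comparison, by group; points are arrays, bars the mean and SD of 3. IRF9 is highest after 24 h of IL-13, IRF1 after 4 h, ADAR after 12 h, and OAS3 is lowest after 24 h.

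Of the 10 members grouped as RNA sensors and RNA-directed enzymes, SAMHD1 counted with them, 6 were bright enough to test. Of these, 2 were called in a comparison, in opposite directions. ADAR, which edits adenosine to inosine in double-stranded RNA, gave 733, 632 and 683 in the untreated arrays at 0 h and 711, 715 and 665 in those at 24 h. After IL-13 the signals were 704, 741 and 847 after 4 h, 932, 817 and 886 after 12 h and 798, 720.2 and 722 after 24 h. The 12 h arrays were all above the highest untreated array, and the 24 h arrays lay close to the untreated ones. Its rise at 12 h over 0 h was 0.39 ± 0.09 (SE, n = 3 per group, adjusted p = 0.0198), a 1.31-fold difference, and between the 24 h groups the difference was 0.01 (adjusted p = 0.954). The 12 h call was lost in 5 of 16 settings, among them scaling each array to the same median and leaving out 0 h array b or c or 12 h array a or c; the values ran from 0.28 to 0.45.

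OAS3, which makes the 2′-5′ oligoadenylates that activate RNase L, gave 199.6, 234 and 265 in the untreated arrays at 0 h and 208, 169.8 and 193 in those at 24 h. IL-13 arrays read 268, 245 and 278 after 4 h, 251, 199 and 222 after 12 h and 194, 154 and 145 after 24 h. The arrays after 24 h of IL-13 were all below the lowest 0 h array and overlapped the untreated 24 h arrays. Between 0 h and 24 h of IL-13 OAS3 fell, with a difference of -0.43 ± 0.13 (SE, n = 3 per group, adjusted p = 0.047). Against untreated cells at 24 h the difference was -0.15 (adjusted p = 0.501), and untreated cells differed between 0 and 24 h by -0.28 (adjusted p = 0.229), so no comparison that holds time or treatment equal called it. The call was lost in 8 of 16 settings, among them leaving out array b or c at 0 h, or array b or c of the IL-13 24 h group, with values from -0.54 to -0.34.

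OAS2, its close relative, gave 51.8, 65.0 and 53.7 in the untreated arrays at 0 h and 83.7, 84.7 and 128 in those at 24 h. In treated cells it read 96.2, 55.3 and 62.7 after 4 h, 55.6, 52.2 and 98.9 after 12 h and 51.1, 93.9 and 55.9 after 24 h. The untreated 24 h arrays were the highest group, 0.47 ± 0.21 (SE, n = 3 per group, adjusted p = 0.23) above 0 h, with 1 array at 128. The gene's other probe set gave -0.36 there. Between the 24 h groups OAS2 differed by -0.31 ± 0.21 (SE, n = 3 per group, adjusted p = 0.387), and its other probe set by 0.24. ISG20, an exonuclease that degrades RNA, gave 110.2, 137 and 107 in the untreated arrays at 0 h and 127, 90.1 and 143 in those at 24 h. With IL-13 it gave 97.1, 117 and 88.9 after 4 h, 103, 96.0 and 106 after 12 h and 160.5, 177 and 130.0 after 24 h. The 24 h IL-13 group was the highest, 0.43 ± 0.15 (SE, n = 3 per group, adjusted p = 0.0966) above untreated 24 h cells, and overlapped it; the gene's other probe set was dim and differed by 0.89. EIF2AK2, the kinase that halts translation on double-stranded RNA, differed by 0.01 (adjusted p = 0.979) between the 24 h groups and by 0.20 (adjusted p = 0.354) between untreated cells at 24 and 0 h, where its other bright probe set gave -0.34. OASL, a relative without synthetase activity, ranged from 55.8 to 152 among the 3 arrays after 24 h of IL-13, and its difference from untreated 24 h cells was -0.37 ± 0.26 (SE, n = 3 per group, adjusted p = 0.406).

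Both tested members of the ISG15 system had positive differences at 24 h that were not called. UBE2L6, the enzyme that conjugates ISG15, gave 161, 124 and 141 in the untreated arrays at 0 h and 179, 114 and 159 in those at 24 h. After IL-13 the signals were 123, 121 and 144 after 4 h, 144, 177 and 231 after 12 h and 198, 177 and 193 after 24 h. The difference between the 24 h groups was 0.38 ± 0.16 (SE, n = 3 per group, adjusted p = 0.148), and the groups overlap in the deposited signals through 1 untreated array at 179. ISG15 itself ranged from 58.7 to 72.1 in untreated cells and from 74.7 to 91.3 with IL-13 at 24 h. These groups do not overlap, and their difference was 0.42 ± 0.19 (SE, n = 3 per group, adjusted p = 0.186), with a 95% interval of 0.02 to 0.83.

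Among the nuclear body and TRIM proteins, SP100 and PML, the 2 core proteins of PML nuclear bodies, varied most between arrays. SP100 gave 63.7, 103 and 90.5 in the untreated arrays at 0 h and 67.0, 56.4 and 36.9 in those at 24 h. In treated cells it read 75.3, 57.9 and 28.9 after 4 h, 83.4, 59.8 and 79.2 after 12 h and 110.4, 75.6 and 72.2 after 24 h. Array c was the lowest of its group both in untreated cells at 24 h and after 4 h of IL-13. The difference between the 24 h groups was 0.70 ± 0.24 (SE, n = 3 per group, adjusted p = 0.0795), and untreated cells at 24 h stood -0.70 (adjusted p = 0.106) from 0 h, while IL-13 at 24 h stood -0.0015 (adjusted p = 0.998) from 0 h. The gene's 4 other probe sets differed between the 24 h groups by -0.21, -0.18, 0.38 and 0.47, so its probe sets disagree in sign.

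PML gave 109, 121 and 118 in the untreated arrays at 0 h and 84.8, 121 and 159.8 in those at 24 h. With IL-13 it gave 112, 106 and 95.1 after 4 h, 110.4, 116 and 189.6 after 12 h and 80.7, 52.4 and 135 after 24 h. Its 24 h groups overlap, with IL-13 array b the lowest of all 15, and differed by -0.32 ± 0.25 (SE, n = 3 per group, adjusted p = 0.454). The 7 other probe sets of PML were all negative there too, from -0.56 to -0.035. TRIM21, a cytosolic antibody receptor, was 0.31 (adjusted p = 0.398) above 0 h at 4 h and 0.03 (adjusted p = 0.922) from untreated cells at 24 h. TRIM14, an adaptor of antiviral signalling, differed by 0.03 (adjusted p = 0.942) between the 24 h groups, where its 3 other probe sets gave 0.06, 0.16 and -0.45.

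The remaining tested members cover the other roles. LGALS3BP, a secreted glycoprotein, varied little between the arrays of a group. At 24 h it ranged from 227 to 237 untreated and from 229 to 248 with IL-13, against 181 to 207 at 0 h. The differences from 0 h were 0.24 (adjusted p = 0.179) untreated and 0.29 (adjusted p = 0.0794) with IL-13, and the 24 h groups differed by 0.05 (adjusted p = 0.773). IFI35, a leucine-zipper protein, ranged from 110.1 to 139 untreated and from 146 to 159 with IL-13 at 24 h, groups that do not overlap, a difference of 0.32 ± 0.13 (SE, n = 3 per group, adjusted p = 0.139). IFIT5, which binds viral RNA ends, differed by 0.35 (adjusted p = 0.287) and overlapped; its other, dim probe set gave 0.73. MX2, a large GTPase at the nuclear envelope, ranged from 77.1 to 89.2 untreated and from 55.6 to 68.3 with IL-13 at 24 h; after normalisation it was the only tested member lower on all 3 IL-13 arrays than on all 3 untreated ones there, at -0.17 ± 0.15 (SE, n = 3 per group, adjusted p = 0.514).

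**Figure D3:**
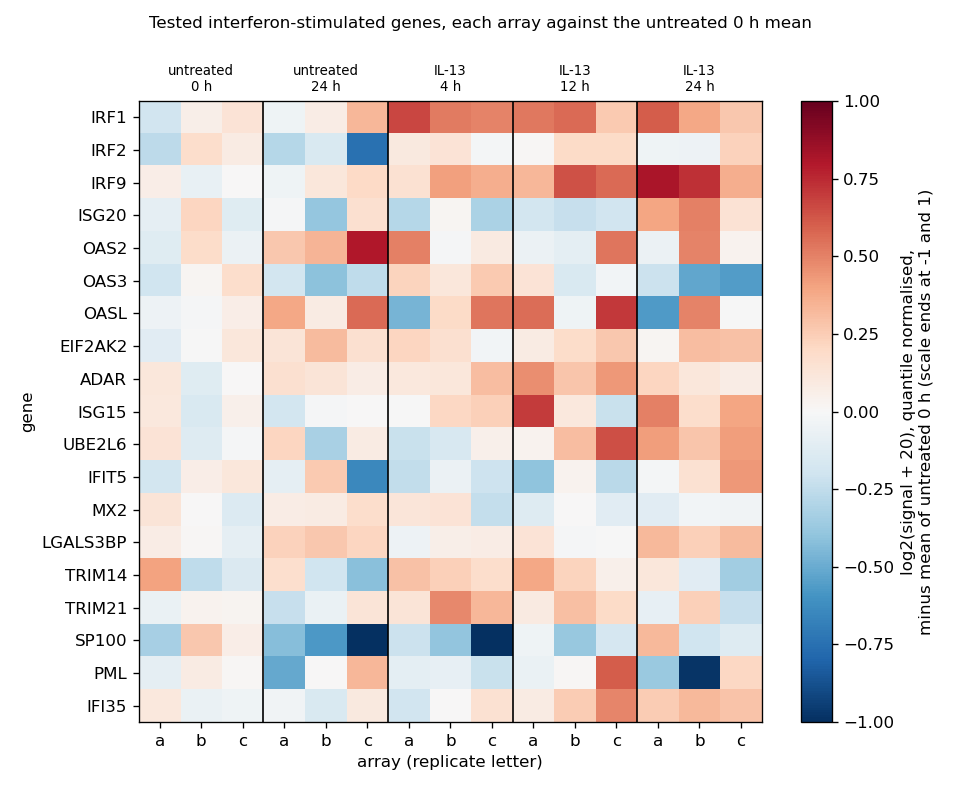
Normalised log2 value of each tested member on each of the 15 arrays, as the difference from that gene's mean over the 3 untreated arrays at 0 h; rows are genes, columns arrays by group. IRF9 and IRF1 are higher on every IL-13 array than the 0 h mean, SP100 is low on array c of the untreated 24 h and IL-13 4 h groups, and the colour scale ends at -1 and 1.

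Counted without a threshold on p, 6 members were higher on all 3 IL-13 arrays than on all 3 untreated arrays at 24 h after normalisation (IRF9, IRF2, ISG15, UBE2L6, SP100 and IFI35), and 1, MX2, was lower. The 6 are 31.6% of the members, against 14.2% of all genes higher in this way, and MX2 alone is 5.26%, against 12.1% of all genes lower.

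Time in culture alone moved no tested member past the threshold: 0 of 19 were called by limma between untreated cells at 24 and 0 h, against 3.62% of all genes, and 5 of 19 had an unadjusted p under 0.05, against 1329 of 6884 genes. Of the 19 differences, 8 were positive (42.1%, against 49.5% of all genes), and their median was -0.03, against -0.0030. The groups did not overlap for 4 members that were higher (21.1%, against 12.2% of all genes) and 1 that was lower (5.26%, against 12.6%).

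The other comparisons set IL-13 against the same 0 h controls, so they share those 3 arrays, and they mix IL-13 with time in culture. At 4 h, 1 of 19 members was called, IRF1, higher (5.26%, against 1.22% of all genes called and 0.349% called higher), the median difference was 0.09, and 13 of 19 were positive. At 12 h, 2 were called, IRF9 and ADAR (10.5%, against 4.14% called and 1.55% called higher), both higher, the median was 0.18 and 14 of 19 were positive. At 24 h, 2 were called, IRF9 higher and OAS3 lower (10.5%, against 6.87% called, 3.40% higher and 3.47% lower), the median was 0.16 and 12 of 19 were positive. The medians over all genes were 0.0038, 0.0071 and 0.0026. Groups did not overlap for 3, 4 and 6 members that were higher at 4, 12 and 24 h, against 7.99%, 11.6% and 13.7% of all genes, and for 0, 1 and 1 that were lower, against 9.36%, 12.1% and 13.0%.

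As a set, the mean log2 value of the 19 tested members was 7.18 ± 0.025 (SD, n = 3 arrays) at 0 h and 7.16 ± 0.022 in untreated cells at 24 h. With IL-13 it was 7.25 ± 0.039 at 4 h, 7.33 ± 0.048 at 12 h and 7.31 ± 0.011 at 24 h. The 9 IL-13 arrays ran from 7.22 to 7.39 and the 6 untreated arrays from 7.15 to 7.20, so the 2 kinds of array do not overlap after quantile normalisation; with the deposited scaling 4 of the 9 IL-13 arrays were above every untreated array, and with scaling to a common median 7 were. The mean of all tested genes lay between 7.90 and 7.91 in every group. The difference between the 24 h groups was 0.14, against a pooled replicate SD of 0.032, and was 0.05 with the deposited scaling and 0.25 with median scaling, which itself moved the median of all genes by 0.17. Measured against that shift, the members' mean stood 0.076 above the median of all genes with median scaling, 0.087 with the deposited scaling and 0.14 after quantile normalisation. The members' median was 0.32, 0.0954 and 0.0537 in the same order, against 0.17, -0.0368 and 0.0016 for all genes. By medians the order of the scalings is thus the reverse. Time alone changed the set mean by -0.02, which turned to 0.07 with the deposited scaling.

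Left without its called genes, the set mean was still higher at 12 and 24 h of IL-13 than at 0 h, but not at 4 h. Without IRF9, IRF1, ADAR and OAS3, the other 15 members had a mean of 6.99 ± 0.025 at 0 h, 6.96 ± 0.011 in untreated cells at 24 h, 6.99 ± 0.053 at 4 h, 7.09 ± 0.066 at 12 h and 7.10 ± 0.032 at 24 h of IL-13. Over all 61 probe sets, dim ones included, the means were 6.05, 6.08, 6.10, 6.14 and 6.18 in the order 0 h, untreated 24 h, and IL-13 at 4, 12 and 24 h. These differences are small and are given as a description, with no test.

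**Figure D4:**
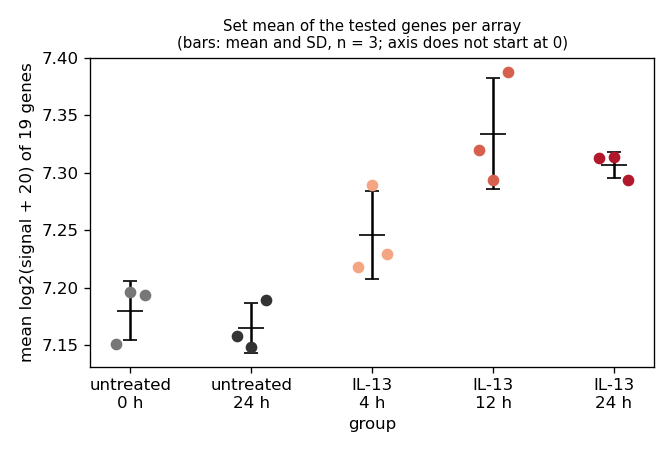
Mean of the normalised log2(signal + 20) over the 19 tested members, 1 point per array, with the mean and SD of each group of 3; the axis does not start at 0. The 6 untreated arrays lie between 7.15 and 7.20 and the 9 IL-13 arrays between 7.22 and 7.39; the separation is partial under the other scalings.

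The other 19 members with a probe set were too dim to judge, including many of the genes that interferon raises most. A gene was dim when its mean log2 value over the 15 arrays was no higher than 6.33, the median over all probe sets except controls, which is a signal of 60.3. MX2 was just inside at 6.45 and OAS1 just outside at 6.31. The dim members included the transcription factor IRF7, USP18, which removes ISG15, and TRIM22. Of the sensors and RNA-directed enzymes, OAS1, RIGI and IFIH1 were dim, as was SAMHD1, which was only grouped with them. Also dim were IFIT1 and IFIT3, the GTPases MX1, GBP1 and GBP2, and IFI44 and IFI44L. The dim membrane proteins were IFI6, IFI27, IFITM1, IFITM3 and BST2. The mean signals of the 19 dim members ran from 4.23 (IFI44L) to 61.1 (OAS1, whose mean of log2 values nevertheless falls below the threshold). IFITM3 is measured only by a probe set of the kind that may bind related transcripts.

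**Figure D5:**
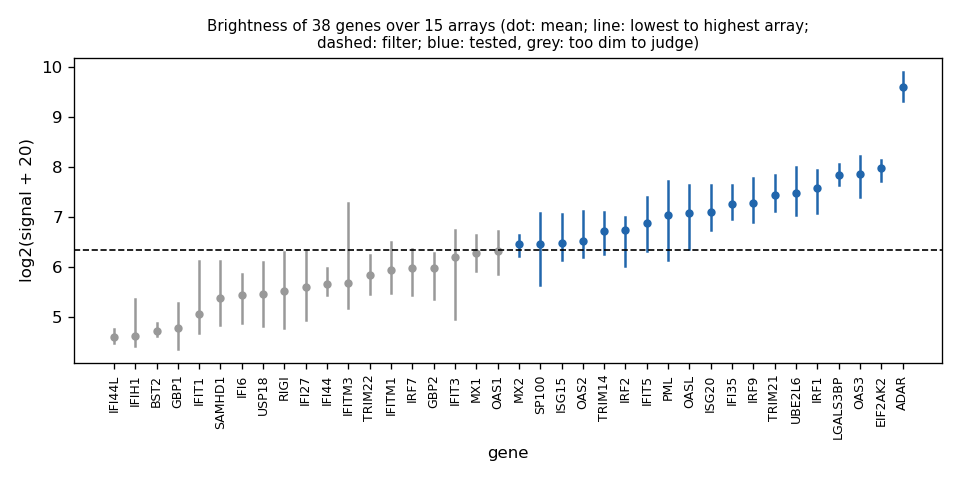
Mean log2(signal + 20) of the 38 members with a probe set over all 15 arrays, with the threshold of 6.33 as a line. Of the 38 members, 19 lie above the line and 19 at or below it, from IFI44L at the bottom to OAS1 just under the line.

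Dim says that the signal lies in the lower part of the array's range, and nothing is drawn from it about whether the gene is expressed. With the brightness threshold removed, limma called 1 dim member in 1 comparison: TRIM22, higher in IL-13 24 h cells than at 0 h by 0.60 ± 0.15 (SE, n = 3 per group), adjusted p = 0.0497. Over all 11963 genes of that fit, 192 were called higher and 163 lower in the same comparison. Without IL-13 the deposited mean signal of TRIM22 was 24.7 at 0 h and 50.1 at 24 h, a difference of 0.46 on the normalised log2 scale. Between the 24 h groups 0 of 19 dim members were called, 4 had an unadjusted p under 0.05, and the smallest adjusted p was 0.139, for IFITM3, where 1 IL-13 array reached 132. Of all 11963 genes, 210 were called higher and 138 lower there. Between untreated cells at 24 and 0 h the smallest adjusted p of a dim member was 0.146, for SAMHD1, which differed by -0.69 ± 0.22 (SE, n = 3 per group). In that comparison the deposited mean signal of OAS1 went from 40.9 to 80.5 and that of MX1 from 42.3 to 70.7. After normalisation OAS1 differed by 0.55 on the log2 scale (adjusted p = 0.169), MX1 by 0.36 (adjusted p = 0.391) and IFIT3 by 0.85 (adjusted p = 0.212). None of these was called, and the other probe set of OAS1 gave 0.04. Of all genes in that fit, 76 were called higher and 79 lower there. The IL-13 groups stood above 0 h for these genes too. At 4, 12 and 24 h of IL-13, IFIT3 differed from 0 h by 0.72, 0.77 and 0.69. In the same order OAS1 differed by 0.48, 0.35 and 0.28 and MX1 by 0.11, 0.42 and 0.35, none of them called. At 12 h the smallest adjusted p of a dim member was 0.0914, for IFIT1. It differed from 0 h by 0.86 ± 0.24 (SE, n = 3 per group).

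The rest of the pathway was read from a list of 45 other interferon genes, of which 38 had a probe set and 21 were bright enough to test. Between the 24 h groups 2 of the 21 rose and 0 fell, against 7.00% of all genes called and 3.94% called higher. IFNGR1, the ligand-binding chain of the interferon gamma receptor, had mean signals of 290 untreated and 442 with IL-13 at 24 h, a difference of 0.55 ± 0.16 (SE, n = 3 per group), adjusted p = 0.0412. NMI, an interferon-induced partner of IFI35, had 143 and 217, a difference of 0.62 ± 0.12, adjusted p = 0.00557.

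Both also rose against 0 h at 24 h, IFNGR1 by 1.04 ± 0.16 (adjusted p = 0.000644), the only called change of 2-fold or more among the members and this list, and NMI by 0.46 ± 0.12 (adjusted p = 0.0285). These differences mix IL-13 with time in culture. IFNGR1 was also higher in untreated cells at 24 h (mean signal 290, arrays from 255 to 308) than at 0 h (mean 202, arrays from 191 to 214), which was not called. JAK1, a kinase of the type I and interferon gamma receptors, fell in untreated cells between 0 and 24 h by 0.32 ± 0.08 on the log2 scale (adjusted p = 0.0388). None of the 21 was called at 4 or 12 h. The ligands IFNA1, IFNA2, IFNB1 and IFNG (mean signals 6.61, 2.22, 4.81 and 39.8) and the type I receptor chains IFNAR1 and IFNAR2 (34.6 and 19.5) were all too dim to judge.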

How the data were processed

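The deposited values are intensity signals, 1 per probe set and array, on a linear scale (22283 probe sets, 68 of them controls, none missing); the authors' software: not given in the sources used here. After trimming 2% at each end, every array averages 150.04 to 150.06. Here 20 was added, log2 taken and the 15 arrays quantile normalised. Controls aside, 19065 probe sets carry 1 gene symbol in GEO's platform annotation, 1043 several and 2107 none; only the first kind was used. A gene took its brightest probe set, one ending in _x_at only where it had no other; 12 members had more than 1 probe set. Genes with a mean log2 above 6.33 were tested with limma 3.58.1 in R 4.3.3: 5 group means over all 15 arrays, 10 residual degrees of freedom, eBayes with trend, two-sided, Benjamini-Hochberg over 6884 genes. The code was tested on simulated data.

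Members, pathway list, markers and tests were chosen with earlier results of these data known. Described array by array are the members called in any comparison and the 6 others with the widest range of group means; from the pathway list, the called genes. Promoters are RefSeq's (GRCh38.p14). Alternatives were other scalings, pseudocounts, filters, probe-set rules, models, a block for the replicate letter and leaving out each array; 0 columns of the table were left unused.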

Additional observations from a re-analysis of the deposited data

How the results depend on the processing

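No called member changed direction under any alternative; the set mean difference between the untreated groups, which has no test, changed sign under some of them. Scaling each array to a common median called 6 members between the 24 h groups (IFI35, IRF1, IRF9, ISG20, SP100 and UBE2L6, all higher), 2 between the untreated groups (OAS3 and SP100, both lower), and 0, 0 and 1 at 4, 12 and 24 h against 0 h. Under it 1182 genes were higher and 56 lower between the 24 h groups, against 271 and 211 as reported, and 48 higher and 1032 lower between the untreated groups, against 119 and 130; that scaling moved the median of all genes by 0.17 and -0.18. A threshold at the 75th percentile called 0 members between the 24 h groups and 1 at 24 h against 0 h. With only the compared groups in the model the counts were 0 between the 24 h groups and 0, 1 and 1 at 4, 12 and 24 h against 0 h. Without a brightness threshold they were 0 at 4 h and 1 at 12 h, and with a pseudocount of 1 the count at 4 h was 0. Averaging all probe sets of a gene raised the count at 24 h against 0 h from 2 to 3 (IRF9, LGALS3BP and OAS3) with 15 members tested.

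Between arrays of the same replicate letter, 15 correlations of the deviations from the group means ran from -0.22 to 0.11, and 2 were over 0.1. Weak correlations cannot show whether arrays of 1 letter share a culture or a batch. With the letter as a replicate block the counts were 0, 1 and 1 at 4, 12 and 24 h against 0 h. Leaving out 1 array gave 0 to 1 called members between the 24 h groups, 0 to 0 at 4 h, 0 to 1 at 12 h and 1 to 2 at 24 h against 0 h.

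The set mean difference between the 24 h groups, 0.14, was 0.0499 with the deposited scaling, 0.25 with median scaling, 0.11 with the pseudocount at the median of all values and 0.0444 with the 75th percentile threshold, which leaves 5 members. Between the untreated groups, -0.02 became 0.0747, -0.12 and 0.0798 under deposited scaling, median scaling and that threshold, and 0.0409 without a threshold. At 4 h, 0.07 became 0.0224 with median scaling, 0.22 with the 75th percentile threshold and 0.11 with all probe sets of a gene averaged. At 12 h, 0.15 became 0.10 and 0.21 under the first 2 of these. At 24 h against 0 h, 0.13 became 0.17 without a threshold and 0.17 with all probe sets of a gene averaged. Beyond what each alternative's own construction changes, the cause was not tested.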
